A study of Sus scrofa with 37 samples.

Results

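The genes described here encode the channels that set the electrical excitability of muscle and other cells, the nicotinic acetylcholine receptor, and the receptor complex that clusters it. They were chosen by symbol: potassium channel genes and their subunits (KCN), sodium channel subunits (SCN), chloride channels and exchangers (CLCN), nicotinic receptor subunits (CHRN), the sodium leak channel genes NALF2 and NALCN, and the end-plate genes MUSK, LRP4 and DOK7. Of 9418 genes in the table, 33 met this rule. They are 16 potassium, 6 chloride, 4 sodium and leak channel genes and 7 nicotinic receptor and end-plate genes. The end plate is the patch of fibre membrane under the nerve. All 33 passed the filter on low counts. SCN4B, NALCN, KCNJ11, KCNE1, CHRNB1 and CHRNE are not analysed here.

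Bulk RNA was sequenced from skeletal muscle of pigs of the Bama miniature breed. Contusion, a blunt mechanical injury, was made in 8 of these minipigs, and muscle was taken at 7 times, every 4 h up to 24 h and then at 48 h, with 4 libraries each. A further 9 libraries are labelled control. All 37 libraries, the controls among them, carry the treatment label mechanical damage. The sources used here do not give the handling of the control muscle, the age or sex of the pigs, the muscle sampled or which of the 8 animals each library came from. P-values therefore measure only the spread between libraries.

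At the end plate the nerve releases acetylcholine, which opens the nicotinic receptor, and the resulting depolarisation triggers sodium channel action potentials that spread along the fibre. Chloride and inward rectifier potassium channels hold the fibre at rest and help to end the action potential. Nerve-derived agrin binds LRP4, which activates the kinase MuSK with the help of DOK7, and this clusters receptors under the nerve. Fetal or denervated fibres are known to make the gamma subunit form of the receptor and to spread receptors outside the end plate, and immature fibres do the same during regeneration.

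Levels are given as CPM, counts scaled to the library size after TMM normalization, and are compared within a gene only, because they are not per transcript length. Changes are log2 fold changes against the controls ± SE, tested with edgeR's quasi-likelihood test and adjusted by Benjamini-Hochberg over 9411 genes, with 0.05 as the threshold. Column totals were 9.86 to 22.9 M counts, and 3 counts in a library equal 0.108 to 0.378 CPM. The libraries also fell into 5 sets that no label names, from large totals or the levels of C1QBP, NDUFAF8 and ND6. Neither set 2 nor set 3 has a control. At 4 h, 3 libraries are in set 2 and 1 in set 3, so no 4 h library shares a set with a control. All 4 libraries at 16 h are in set 1 and all 4 at 48 h in set 5. A 4 h change fitted with the sets thus reaches the controls only through libraries at other times. For the members described by name, values fitted with these sets as a term are given where they end a call. For partner genes no such values are given. The tissue label was checked against 16 fibre markers, of which 9 are in the table, and their summed level was 68453 to 137833 CPM in the controls. At 48 h the libraries stood apart from each other: the fibre sum was 23307, 79457, 34070 and 75659 CPM in replicates 1 to 4, and the sum of 12 macrophage and monocyte markers (of 14 listed) was 709, 122, 507 and 169.8 CPM against 67.8 to 212 CPM in the controls. Replicates 1 and 3 at 48 h were thus low in fibre markers and high in macrophage markers, and replicates 2 and 4 were within the control range of both lists. Results at 48 h are also given without replicates 1 and 3, an omission chosen after the data were seen. Without them 1 of 9414 genes tested (0.0106%) was called at 48 h, and no member or partner gene was.

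Over the 33 genes, 32 passed the test at 1 or more times, 11 of them only as higher, 19 only as lower, and 2 in both directions. The remaining gene, SCN4A, passed at no time, as did 13.3% of all genes tested. No member was higher at all 7 times. In the test of the 7 times together, 31 of 33 members passed, against 83.2% of all genes.

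The number of members that passed differed by time. At 4 h, 5 members passed, all lower, against 18.3% of all genes (9.22% higher and 9.06% lower). At 8 h, 7 were higher and 11 lower, against 54% of all genes (25.8% higher and 28.2% lower). At 12 h, 3 were higher and 11 lower, against 31% (16.3% higher and 14.7% lower). At 16 h, 7 were higher and 9 lower, against 53.1% (25.3% higher and 27.8% lower), and at 20 h, 9 were higher and 10 lower, against 51.5% (25.4% higher and 26.2% lower). At 24 h, 9 were higher and 14 lower, against 53.9% (26.8% higher and 27.1% lower). At 48 h, 7 were higher and 2 lower, against 20.3% (12.8% higher and 7.45% lower). The share of members passing from 8 to 24 h was, in order of time, 54.5%, 42.4%, 48.5%, 57.6% and 69.7%. The median log2 change of the members, in order of time, was -0.39, -0.26, -0.22, -0.08, -0.04, -0.25 and -0.14, while that of all genes lay between -0.07 and -0.02. Scaling by column totals in place of TMM shifted the all-gene median by -0.15 at 4 h, and by 0.35, 0.33, 0.48 and 0.35 from 16 h on, and directions hold on the TMM scale. With totals, members split as 10 higher and 5 lower at 16 h, 11 and 9 at 24 h, and 10 and 1 at 48 h. Genes passing in all at these times were 5000, 5716 and 3348 with totals, against 4995, 5072 and 1906 with TMM.

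**Figure D1:**
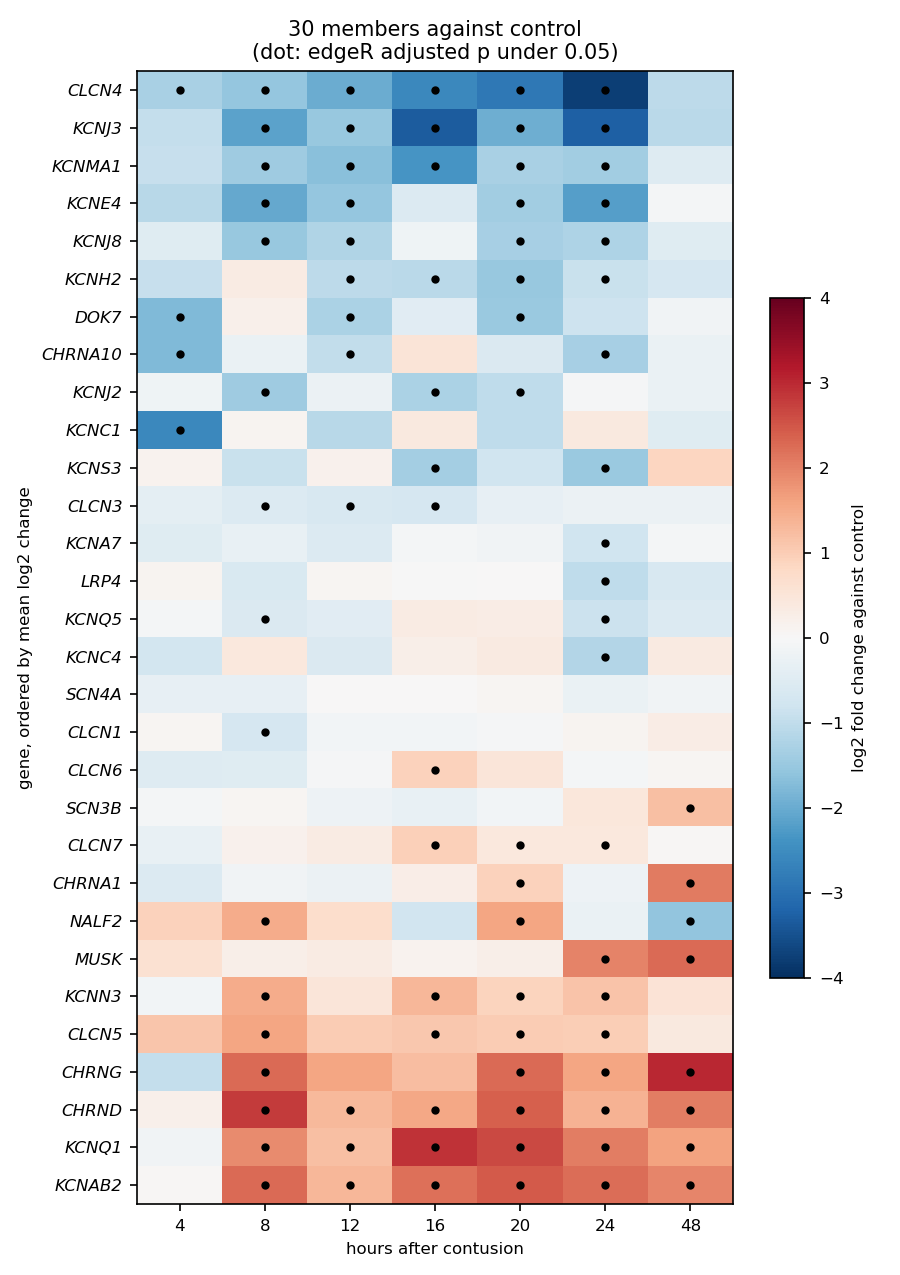
Log2 fold change against control of 30 of the 33 members (rows, ordered by their mean change) at the 7 times in hours after contusion (columns), with colour from blue for lower to red for higher and a dot where the edgeR adjusted p was under 0.05. SCN4A has no dot, and KCNAB2, KCNQ1 and CHRND in the bottom rows have dots at 8 to 48 h.

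The 3 measured subunit genes of the muscle receptor rose, at different times. CHRND, which encodes the delta subunit found in fetal and adult muscle receptors (chromosome 15, 133040310 to 133047839), was between 1.26 and 6.37 CPM (median 1.95) in the controls and 30.9, 17.2, 13.4 and 6.62 CPM at 8 h. All 4 libraries at 8 h lay above all 9 controls, and the log2 change was 2.80 ± 0.42 (adjusted p = 2.88e-06). At 20 h the libraries were at 13.1, 14.9, 11.1 and 12.9 CPM, also without overlap, for a log2 change of 2.40 ± 0.43 (adjusted p = 3.07e-05). At 24 h they held 5.79, 6.42, 5.93 and 7.38 CPM, overlapping only the highest control, for a log2 change of 1.38 ± 0.43 (adjusted p = 0.00794). The gene also passed at 12 h with 1.30, at 16 h with 1.54 and at 48 h with 2.05, which makes 6 of 7 times. At 4 h it held 3.43, 4.69, 2.40 and 0.878 CPM, and the log2 change of 0.21 ± 0.48 did not pass (adjusted p = 0.791). With the sets as a term the change at 16 h was 1.04 (adjusted p = 0.254). The call at 12 h was lost without 12 h replicate 2, at 0.81 (adjusted p = 0.225), or without 12 h replicate 3, at 1.27 (adjusted p = 0.0521).

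CHRNG encodes the gamma subunit of the fetal receptor and is the next gene on the chromosome (chromosome 15, 133051668 to 133059935). Its controls ran from 0 to 1.33 CPM (median 0.488), with 2 libraries at 0 counts, so its control level is near the level of 3 counts. At 8 h it held 4.88, 2.43, 2.02 and 0.772 CPM, and the log2 change was 2.27 ± 0.61 (adjusted p = 0.00227). Replicate 4 at 8 h was the lowest in CHRND, CHRNG and the macrophage marker sum, and the part of tissue composition was not tested. At 20 h the 4 libraries held 2.14, 2.87, 2.59 and 2.58 CPM, all above the controls, with a log2 change of 2.28 ± 0.60 (adjusted p = 0.00220). At 24 h they held 1.52, 1.28, 2.07 and 1.44 CPM, for a log2 change of 1.58 ± 0.61 (adjusted p = 0.0296). The gamma gene thus passed at 3 of the times before 48 h, all of them times at which CHRND passed too. At 12 h and 16 h the changes were 1.58 ± 0.65 and 1.25 ± 0.63, and neither passed (adjusted p = 0.0602 and 0.0950). With the sets as a term the change at 8 h was 1.61 (adjusted p = 0.0944). The call at 24 h was lost without control replicate 9, at 1.44 (adjusted p = 0.0502), or without 24 h replicate 3, at 1.43 (adjusted p = 0.0758).

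CHRNA1 encodes the alpha subunit, which carries the acetylcholine binding site (chromosome 15, 80673072 to 80692256). The CHRNA1 controls lay between 11.9 and 38.8 CPM (median 21.5), and from 4 to 16 h and at 24 h it did not pass. At 20 h it held 52.2, 61.7, 29.8 and 24.8 CPM, with 2 of 4 libraries above the highest control, for a log2 change of 0.91 ± 0.37 (adjusted p = 0.0393). That call was lost without any 1 of 7 libraries (control replicates 1, 2, 4, 5 and 6, and 20 h replicates 1 and 2), with log2 changes down to 0.66 and adjusted p up to 0.184, and the change was 0.98 (adjusted p = 0.0900) with the sets as a term. At 48 h the libraries held 146, 30.0, 173 and 25.1 CPM, so replicates 1 and 3 were far above every control and replicates 2 and 4 inside the control range. The log2 change at 48 h was 2.07 ± 0.36 (adjusted p = 0.000166) and 0.31 (adjusted p = 1) without those replicates. CHRND at 48 h held 16.1, 4.48, 17.4 and 2.32 CPM and CHRNG 5.46, 1.15, 9.72 and 0.483 CPM, with the same libraries high. Their log2 changes of 2.05 ± 0.43 (adjusted p = 0.00104) and 3.01 ± 0.59 (adjusted p = 0.000571) became 0.48 (adjusted p = 1) and 0.65 (adjusted p = 1) without them. Leaving out 48 h replicate 3 alone gave 2.19 (adjusted p = 0.0246) for CHRNG. The libraries with high receptor genes were those with low fibre markers and high macrophage markers, and the part of tissue composition in these values was not tested. In bulk RNA, fewer cells of a type and less RNA per cell cannot be told apart.

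CHRNA10, a nicotinic subunit best known from hair cells of the inner ear (chromosome 9, 6427832 to 6431881), went the other way. The CHRNA10 controls lay between 9.08 and 33.9 CPM (median 16.9), and at 4 h it held 3.54, 4.48, 8.54 and 3.73 CPM, below all controls, for a log2 change of -1.76 ± 0.37 (adjusted p = 0.00185). It was also lower at 24 h, with 11.7, 8.07, 3.22 and 4.93 CPM and a log2 change of -1.33 ± 0.36 (adjusted p = 0.00238). The 12 h call, -0.98 ± 0.35 (adjusted p = 0.0342), was lost without control replicate 1 or without 12 h replicate 1, 3 or 4, with changes up to -0.77 and adjusted p up to 0.124. The sets as a term gave CHRNA10 changes of -0.99 (adjusted p = 0.197) at 4 h and -0.40 (adjusted p = 0.420) at 12 h.

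The kinase gene MUSK rose late. MUSK encodes the receptor tyrosine kinase of the end plate (chromosome 1, 251650151 to 251758538), and its controls lay between 2.77 and 10.9 CPM (median 4.35). From 4 to 20 h its changes lay between 0.13 and 0.60 on the log2 scale and none passed. At 24 h the libraries held 13.8, 38.8, 21.9 and 16.6 CPM, all above the highest control, with a log2 change of 1.98 ± 0.44 (adjusted p = 0.00039). At 48 h they held 47.0, 12.6, 48.1 and 2.80 CPM, so 3 libraries were above the controls and replicate 4 was near their lowest value. The 48 h log2 change was 2.26 ± 0.44 (adjusted p = 0.000572), and 0.42 (adjusted p = 1) without replicates 1 and 3. With the sets as a term the 24 h change was 1.60 (adjusted p = 0.0516). The summed fibre markers were 23880 to 39188 CPM at 24 h and 37228 to 46937 CPM at 16 h, both below the lowest control. At 16 h MUSK was within the control range. The part of fibre content in the MUSK values was not tested.

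No rise of its partners passed the test. DOK7, the cytoplasmic adaptor that activates MuSK (chromosome 8, 2089645 to 2119076), was between 6.54 and 29.9 CPM (median 10.7) in the controls and 2.40, 2.55, 9.00 and 1.43 CPM at 4 h, for a log2 change of -1.77 ± 0.49 (adjusted p = 0.0130). It also passed as lower at 12 h with -1.26 ± 0.48 (adjusted p = 0.0433) and at 20 h with -1.49 ± 0.48 (adjusted p = 0.0101). At 20 h the libraries held 4.57, 6.99, 6.36 and 1.48 CPM. The DOK7 calls were not stable: with the sets as a term the changes were -0.67 (adjusted p = 0.378) at 4 h, -0.24 (adjusted p = 0.649) at 12 h and -0.40 (adjusted p = 0.358) at 20 h. The 4 h call was also lost without 4 h replicate 2 or 4, at -1.62 (adjusted p = 0.0692) and -1.51 (adjusted p = 0.0528), and was -2.68 (adjusted p = 0.00293) without 4 h replicate 3. The 20 h call was lost without 20 h replicate 4, at -1.18 (adjusted p = 0.0572), and the 12 h call without any 1 of 6 libraries (control replicates 1, 2 and 7, and 12 h replicates 1, 3 and 4), with adjusted p up to 0.14. LRP4, the agrin receptor (chromosome 2, 15616137 to 15672876), was between 5.07 and 13.7 CPM (median 10.00) in the controls and 7.09, 4.11, 5.36 and 4.32 CPM at 24 h, for a log2 change of -1.01 ± 0.33 (adjusted p = 0.00967) that was -0.96 (adjusted p = 0.0672) with the sets as a term. At 24 h, then, 3 of the 7 nicotinic receptor and end-plate genes were higher (MUSK, CHRND and CHRNG) and 2 lower (LRP4 and CHRNA10), where 53.9% of all genes passed. CHRNA10 is in this group by its symbol only.

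**Figure D2:**
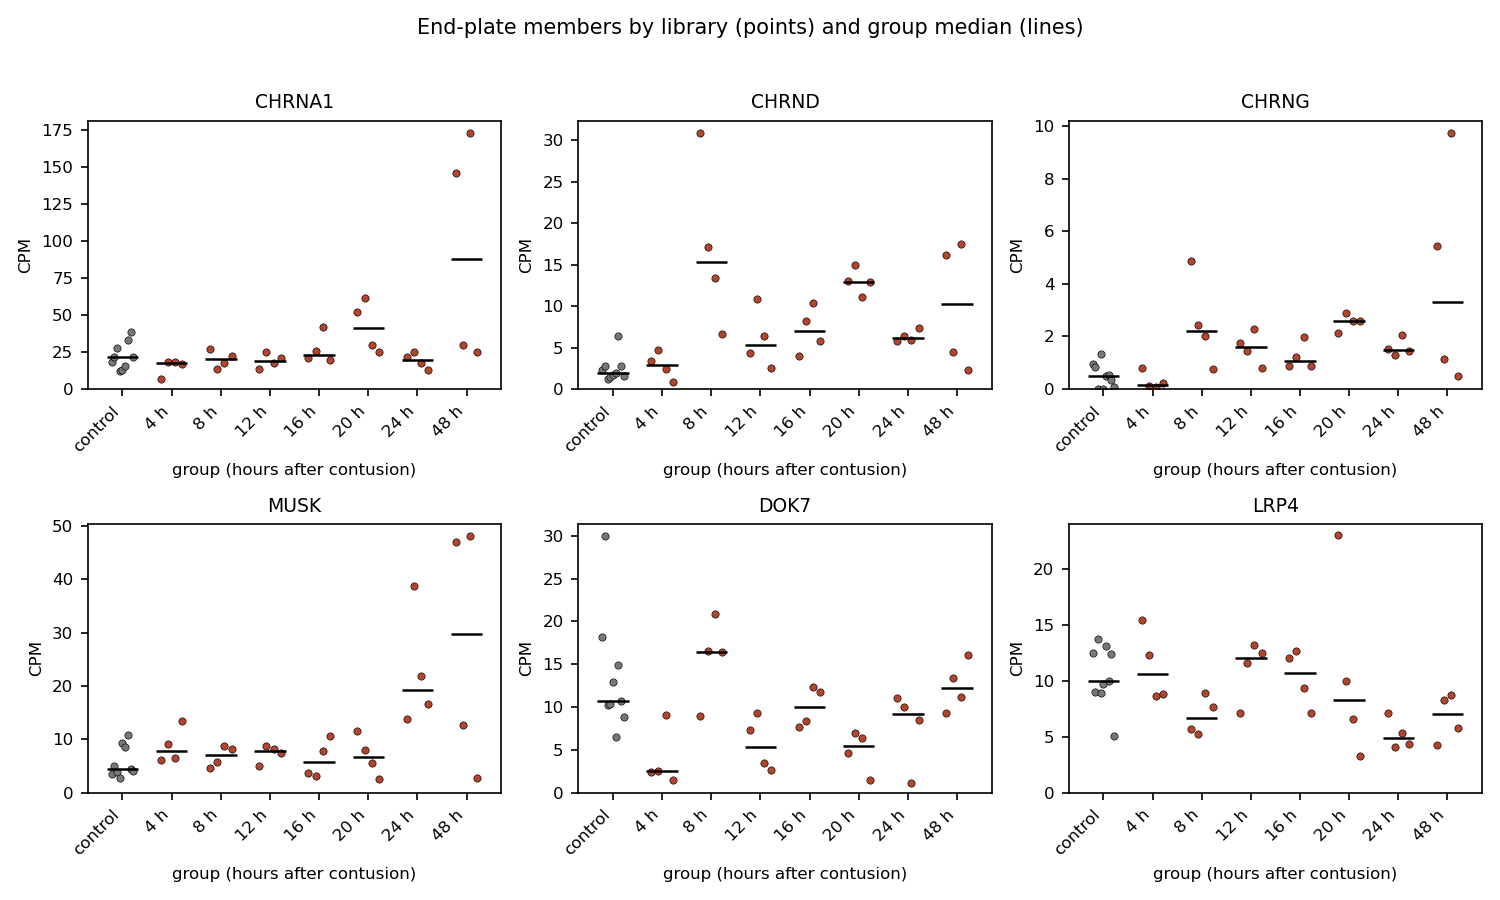
CPM of CHRNA1, CHRND, CHRNG, MUSK, DOK7 and LRP4 in each library (points) with the group median (lines), for the 9 controls and the 4 libraries at each time in hours after contusion. CHRND at 8 h and 20 h lies above every control, MUSK rises above the controls at 24 h, and at 48 h CHRNA1, CHRND and CHRNG each have 2 libraries far above the other 2.

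The main sodium channel gene of the fibre passed at no time. SCN4A, the pore subunit Nav1.4 of skeletal muscle (chromosome 12, 15001356 to 15048092), was between 140.1 and 236 CPM (median 196) in the controls. At 8 h it held 111, 115, 156 and 207 CPM and at 48 h 98.1, 211, 164 and 194 CPM, both overlapping the controls. Its largest change against control in size was -0.33 ± 0.26 at 8 h (adjusted p = 0.303, unadjusted p = 0.226), and the 7 times together did not pass (adjusted p = 0.753). Over 211 values of this gene from the alternative fits, 1 passed, the slope on time with scaling by column totals (adjusted p = 0.0217). The widest spread was at 20 h, with 367, 207, 123 and 75.1 CPM, from above to below all controls. The fibre sums at 20 h were 92118, 44194, 36460 and 33309 CPM in the same order.

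SCN3B, the beta-3 subunit (chromosome 9, 50508194 to 50532432), was between 2.46 and 9.67 CPM (median 4.69) in the controls and passed only at 48 h, with 13.5, 3.85, 25.6 and 3.48 CPM. Its log2 change of 1.21 ± 0.34 (adjusted p = 0.0113) turned to -0.45 (adjusted p = 0.973) without replicates 1 and 3. Without replicate 1 or replicate 3 alone it was 1.11 (adjusted p = 0.0826) and 0.45 (adjusted p = 0.439).

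NALF2, an auxiliary subunit of the sodium leak channel NALCN, moved in both directions. The NALF2 controls lay between 1.10 and 13.1 CPM (median 6.64). At 8 h it held 20.7, 17.2, 19.6 and 16.4 CPM and at 20 h 20.8, 16.2, 19.3 and 22.4 CPM, both above all controls, for log2 changes of 1.49 ± 0.39 (adjusted p = 0.00193) and 1.58 ± 0.39 (adjusted p = 0.00114). Between these times, at 16 h, it held 3.63, 5.01, 2.91 and 4.06 CPM, within the control range, and the change did not pass (adjusted p = 0.145). At 48 h it held 3.68, 2.08, 0.772 and 2.12 CPM, overlapping the lowest controls, for a log2 change of -1.58 ± 0.47 (adjusted p = 0.0165). The 48 h call was lost without 48 h replicate 3, at -1.30 (adjusted p = 0.100), without replicates 1 and 3, at -1.62 (adjusted p = 0.807), and with the sets as a term, at -0.37 (adjusted p = 0.637).

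The chloride genes divided by member. CLCN1 encodes ClC-1, the main resting chloride conductance of muscle fibres (chromosome 18, 6902540 to 6941530). The CLCN1 controls lay between 10.1 and 15.9 CPM (median 11.3), and at 8 h it held 6.96, 6.86, 7.64 and 8.72 CPM, below all controls, for a log2 change of -0.68 ± 0.20 (adjusted p = 0.00413). It passed at no other time, and at 48 h it held 18.8, 10.4, 16.0 and 13.9 CPM. The span of CLCN1 overlaps FAM131B, which has no row in the table.

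CLCN4, an endosomal chloride/proton exchanger (chromosome X, 6939637 to 7019745), fell the most of the chloride genes. The CLCN4 controls lay between 18.2 and 46.2 CPM (median 37.9), and it held 3.05, 4.25, 8.98 and 7.08 CPM at 16 h, 10.3, 4.12, 3.28 and 1.55 CPM at 20 h and 3.55, 3.15, 1.50 and 2.05 CPM at 24 h, each group below all controls. The log2 changes were -2.58 ± 0.46 (adjusted p = 3.13e-05), -2.87 ± 0.47 (adjusted p = 1.1e-05) and -3.76 ± 0.49 (adjusted p = 4.28e-07). Without 20 h replicate 1, the highest at that time, the 20 h change was -3.55. At 8 h and 12 h the changes were -1.55 ± 0.43 and -1.97 ± 0.44, and both passed. The 4 h change, -1.28 ± 0.42 (adjusted p = 0.0330), was lost without 4 h replicate 1, 2 or 3, with adjusted p up to 0.116, and was -1.29 (adjusted p = 0.239) with the sets as a term. At 48 h it held 4.54, 20.4, 7.56 and 35.2 CPM, with replicates 1 and 3 below the controls and replicates 2 and 4 within them, and did not pass (adjusted p = 0.0697).

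The other 4 exchangers of endosomes and lysosomes changed by less than CLCN4 did from 16 to 24 h, with called log2 changes between -0.69 and 1.58. CLCN7, the lysosomal exchanger (chromosome 3, 40397807 to 40420960), was between 17.7 and 28.9 CPM (median 21.1) in the controls and 49.0, 43.6, 38.8 and 38.2 CPM at 16 h, above all controls, for a log2 change of 0.95 ± 0.17 (adjusted p = 4.12e-05). Its changes of 0.42 at 20 h and 0.42 at 24 h also passed, and were lost without any 1 of 8 and 9 libraries (control replicates 3, 5, 6, 7, 8 and 9 in both, 20 h replicates 2 and 3, and 24 h replicates 1, 2 and 4), with adjusted p up to 0.165. CLCN6, of late endosomes (chromosome 6, 71881912 to 71915016), passed only at 16 h, with 10.4, 7.74, 8.91 and 10.7 CPM against controls between 2.71 and 7.62 CPM (median 4.69) and a log2 change of 0.92 ± 0.23 (adjusted p = 0.00113). Its span overlaps that of another gene in the table, so these values are uncertain. CLCN5, an endosomal exchanger best known from the kidney (chromosome X, 43779016 to 43809472), was higher at 8 h, with 6.69, 7.38, 6.30 and 1.99 CPM against controls between 0.738 and 3.25 CPM (median 1.64) and a log2 change of 1.58 ± 0.40 (adjusted p = 0.00133). Its calls at 16, 20 and 24 h (changes of 1.09, 1.03 and 0.98) were each lost on leaving out some single library. These were 16 h replicates 1 and 2; at 20 h control replicates 2, 5 and 6 and 20 h replicates 2 and 4; and at 24 h control replicates 2, 4, 5, 6, 8 and 9 and 24 h replicates 1 and 3, with changes down to 0.37 and adjusted p up to 0.485. CLCN3, of endosomes and vesicles (chromosome 14, 20037628 to 20127160), was lower at 8, 12 and 16 h, with log2 changes of -0.54, -0.63 and -0.69. The 8 h call was lost without 8 h replicate 1, at -0.40 (adjusted p = 0.105), and the 12 h call without 12 h replicate 3, at -0.44 (adjusted p = 0.0784). Fitted with the sets, CLCN5 was at 1.19 (adjusted p = 0.0615) at 8 h, 0.57 (adjusted p = 0.460) at 16 h and 1.00 (adjusted p = 0.0856) at 20 h, and CLCN6 at 0.76 (adjusted p = 0.0709) at 16 h. CLCN3 was then at -0.32 (adjusted p = 0.227) at 8 h and -0.37 (adjusted p = 0.240) at 16 h, so none of these 6 calls was kept.

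Among the potassium channels of the fibre membrane, the inward rectifier fell and returned. KCNJ2 encodes Kir2.1, which sets the resting potential (chromosome 12, 10351959 to 10380631). The KCNJ2 controls lay between 44.4 and 114 CPM (median 72.0). It held 16.3, 22.4, 23.5 and 46.6 CPM at 8 h, for a log2 change of -1.42 ± 0.29 (adjusted p = 0.000153), and 40.9, 68.0, 88.5 and 52.1 CPM at 12 h, where it did not pass (adjusted p = 0.565). It then held 14.4, 19.3, 41.7 and 46.2 CPM at 16 h and 44.1, 37.1, 36.6 and 25.8 CPM at 20 h, with log2 changes of -1.26 ± 0.29 (adjusted p = 0.000534) and -1.02 ± 0.28 (adjusted p = 0.00332). At 24 h it held 58.7, 83.6, 63.3 and 74.6 CPM and at 48 h 49.0, 57.2, 60.3 and 76.1 CPM, both inside the control range. It thus passed as lower at 8, 16 and 20 h, with 1 of 4 libraries inside the control range at 8 h and at 16 h and none at 20 h, and 3 of 4 libraries at 8 h and all 4 at 16 h are in set 1. With the sets as a term the 16 h change was -0.80 (adjusted p = 0.0712), while those at 8 h and 20 h, -1.11 (adjusted p = 0.00480) and -1.35 (adjusted p = 0.00137), passed. Fibre marker sums at 16, 20 and 24 h were 37228 to 46937, 33309 to 92118 and 23880 to 39188 CPM, and the part of fibre content in the KCNJ2 values was not tested.

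KCNA7 and KCNC4, which encode the voltage-gated potassium channels Kv1.7 and Kv3.4, passed at 24 h only. KCNC4 (chromosome 4, 109885116 to 109908518) was between 13.7 and 55.9 CPM (median 28.3) in the controls and 19.5, 13.4, 5.43 and 11.4 CPM at 24 h, for a log2 change of -1.18 ± 0.36 (adjusted p = 0.00607). Scaling by column totals gave -0.72 (adjusted p = 0.0526). KCNA7 (chromosome 6, 54276596 to 54283891) was between 18.6 and 43.1 CPM (median 28.4) in the controls and 17.0, 17.1, 11.7 and 18.1 CPM at 24 h, for a log2 change of -0.80 ± 0.29 (adjusted p = 0.0210), and the 7 times together did not pass (adjusted p = 0.175). The KCNA7 call was lost without 24 h replicate 3, at -0.69 (adjusted p = 0.0865), and with the sets as a term, at -0.85 (adjusted p = 0.0935), and its span overlaps NTF4, which has its own row. KCNA7 and SCN4A were the only 2 members that did not pass in the test of all 7 times. At 48 h KCNA7 held 10.7, 38.2, 14.8 and 42.2 CPM and KCNC4 13.1, 56.9, 33.7 and 41.5 CPM.

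**Figure D3:**
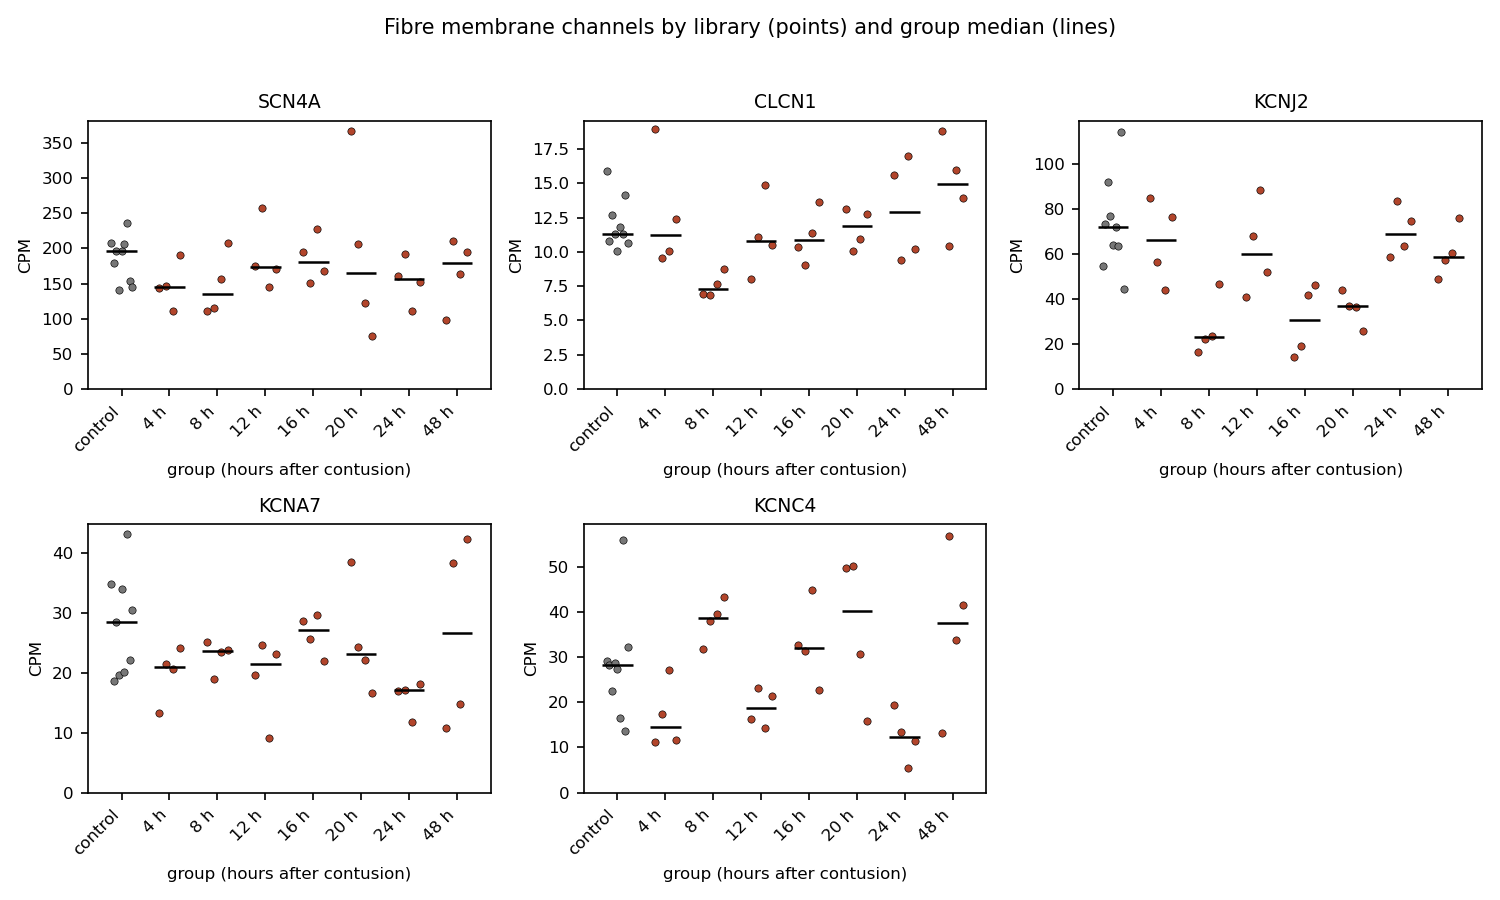
CPM of SCN4A, CLCN1, KCNJ2, KCNA7 and KCNC4 in each library (points) with the group median (lines), for the 9 controls and the 4 libraries at each time in hours after contusion. CLCN1 at 8 h lies below all controls, KCNJ2 is low at 8, 16 and 20 h, and SCN4A overlaps the controls at every time.

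A further inward rectifier gene also fell. KCNJ3 encodes GIRK1, a G protein gated inward rectifier known from heart and brain (chromosome 15, 62263913 to 62415915). The KCNJ3 controls lay between 6.84 and 19.3 CPM (median 14.9), and it held 1.15, 1.08, 1.06 and 2.13 CPM at 16 h and 1.52, 2.38, 0.858 and 0.828 CPM at 24 h. All these libraries were below all controls, and the log2 changes were -3.34 ± 0.47 (adjusted p = 1.48e-06) and -3.27 ± 0.46 (adjusted p = 1.28e-06). At 20 h it held 7.55, 3.42, 2.38 and 1.16 CPM, for a change of -1.94 ± 0.43 (adjusted p = 0.000372), which was -2.57 without 20 h replicate 1. It was also lower at 8 h with -2.14 and at 12 h with -1.50. At 4 h and 48 h the changes of -0.94 and -1.08 did not pass.

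KCNJ8, KCNMA1 and KCNE4 encode channel subunits known from vascular smooth muscle and pericytes, and the markers of those cells were also lower. KCNJ8, the Kir6.1 pore of the vascular ATP-sensitive channel (chromosome 5, 51695927 to 51704402), was between 13.0 and 41.6 CPM (median 21.4) in the controls and 5.96, 5.47, 12.5 and 10.5 CPM at 8 h, below all of them, for a log2 change of -1.52 ± 0.27 (adjusted p = 2.69e-05). At 16 h it held 26.8, 24.4, 19.2 and 18.1 CPM, within the control range, and did not pass (adjusted p = 0.603). At 12, 20 and 24 h its log2 changes were -1.21, -1.34 and -1.24, and all 3 passed. KCNMA1, the pore of the large-conductance calcium-activated channel (chromosome 14, 79345382 to 80106337), was between 8.13 and 52.9 CPM (median 19.4) in the controls and 2.99, 3.55, 5.81 and 6.74 CPM at 16 h, below all controls. Its log2 change at 16 h was -2.35 ± 0.42 (adjusted p = 3.36e-05), and it was also lower at 8, 12, 20 and 24 h, with log2 changes of -1.43, -1.66, -1.31 and -1.40. So at 16 h KCNMA1 had its lowest level and KCNJ8 was among the controls. With the sets as a term the 8 h change of KCNMA1 was -0.96 (adjusted p = 0.0597).

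KCNE4, an ancillary subunit that inhibits several voltage-gated channels (chromosome 15, 124910708 to 124915787), was between 2.93 and 15.9 CPM (median 6.15) in the controls. It held 0.813, 1.56, 2.35 and 1.99 CPM at 8 h and 1.88, 1.10, 1.93 and 1.22 CPM at 24 h, all below the controls, for log2 changes of -2.04 ± 0.45 (adjusted p = 0.000327) and -2.19 ± 0.44 (adjusted p = 0.000127). The changes at 12 h and 20 h, -1.54 and -1.38, passed, and with the sets as a term they were -0.80 (adjusted p = 0.227) and -0.69 (adjusted p = 0.224). The sum of 10 smooth muscle and pericyte markers (of 12 listed) was 1639 to 3024 CPM in the controls, 773 to 929 at 8 h, 746 to 1062 at 16 h and 1518 to 1966 at 24 h, and none of the 10 was at 0 in every library. At 8 h, 8 of the 10 markers were lower and none higher, and at 16 h 7 were lower and none higher. Their part in the 3 channel genes was not tested.

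**Figure D4:**
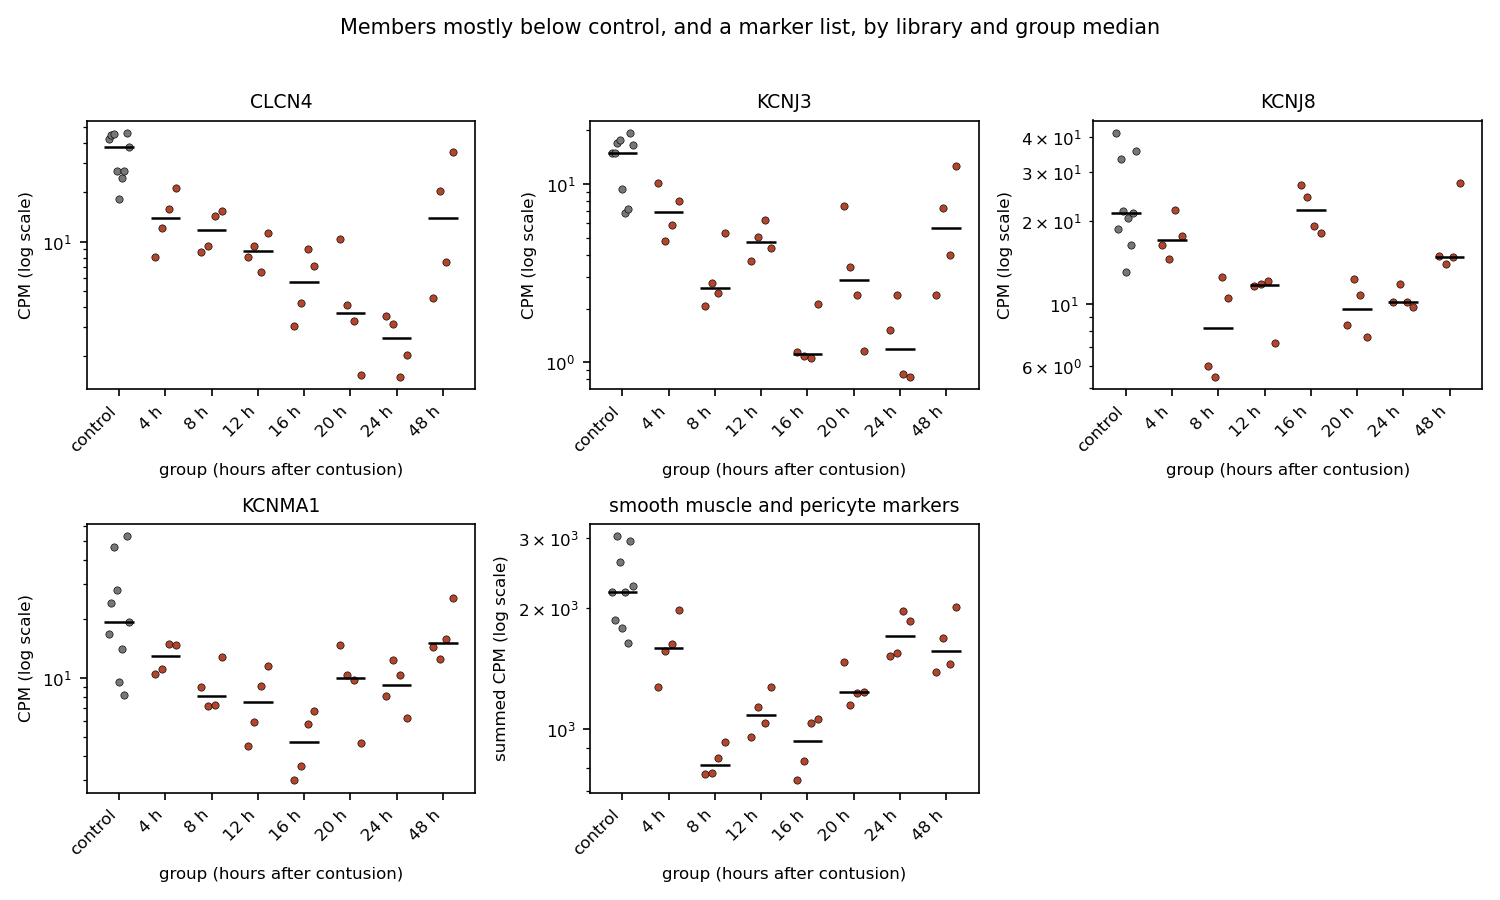
CPM of CLCN4, KCNJ3, KCNJ8 and KCNMA1 and the summed CPM of 10 smooth muscle and pericyte markers in each library (points) with the group median (lines), on log axes, for the 9 controls and the 4 libraries at each time in hours after contusion. CLCN4 lies below all controls from 8 to 24 h, KCNJ8 returns to the control range at 16 h, and the marker sum is lowest at 8 h and 16 h.

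KCNH2, KCNS3, KCNQ5 and KCNC1 also fell, with called log2 falls between -0.58 and -2.58. KCNC1, the fast channel Kv3.1 (chromosome 2, 41362208 to 41407935), passed only at 4 h, with 0.915, 1.02, 0.994 and 0.439 CPM against controls between 0.984 and 11.6 CPM (median 4.28) and a log2 change of -2.58 ± 0.67 (adjusted p = 0.00844). KCNH2, the delayed rectifier best known from the heart (chromosome 18, 6242826 to 6279154), was lower at 12, 16, 20 and 24 h and most at 20 h, with 2.70, 2.41, 2.66 and 1.48 CPM against controls between 2.17 and 8.09 CPM (median 7.17) and a log2 change of -1.51 ± 0.36 (adjusted p = 0.000946). Its calls at 12, 16 and 24 h were each lost without some single library (replicates 1 and 3 at 12 h, 1 and 2 at 16 h, 2 and 3 at 24 h), with adjusted p up to 0.149. Fitted with the sets, the 4 h change of KCNC1 was -0.42 (adjusted p = 0.759). KCNH2 then held changes of -0.83 (adjusted p = 0.162), -1.06 (adjusted p = 0.0687) and -0.98 (adjusted p = 0.0916) at 12, 16 and 24 h.

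KCNS3, a silent subunit that pairs with other potassium channel subunits (chromosome 3, 119951110 to 119989541), was lower at 24 h, with 8.54, 8.80, 7.08 and 8.25 CPM against controls between 4.84 and 80.6 CPM (median 18.3) and a log2 change of -1.47 ± 0.47 (adjusted p = 0.00932). Its 16 h call, -1.35 ± 0.47 (adjusted p = 0.0162), was lost without control replicate 7, at -0.80 (adjusted p = 0.0597), or 16 h replicate 1, at -1.19 (adjusted p = 0.0654). KCNQ5, a slowly activating channel (chromosome 1, 52435332 to 52939705), held 17.9, 17.7, 21.2 and 17.3 CPM at 24 h, below all controls, which lay between 22.8 and 42.4 CPM (median 35.0), for a log2 change of -0.86 ± 0.24 (adjusted p = 0.00308). Its 8 h call, -0.58 ± 0.24 (adjusted p = 0.0382), was lost without any 1 of 6 libraries (control replicates 3, 5, 7 and 8, and 8 h replicates 1 and 2), with adjusted p up to 0.156. The sets as a term gave -0.79 (adjusted p = 0.317) for KCNS3 at 16 h and -0.41 (adjusted p = 0.236) for KCNQ5 at 8 h.

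Among the members reported by name, the potassium channel genes that rose were KCNQ1, KCNAB2 and KCNN3. KCNQ1 encodes Kv7.1, a voltage-gated channel best known from heart and epithelia (chromosome 2, 1675323 to 1989110). The KCNQ1 controls lay between 0.761 and 2.54 CPM (median 1.54), and it held 12.8, 15.1, 11.2 and 7.15 CPM at 16 h and 10.7, 9.40, 8.81 and 9.74 CPM at 20 h, all above the controls. The log2 changes were 2.90 ± 0.43 (adjusted p = 2.68e-06) and 2.64 ± 0.43 (adjusted p = 1e-05). At 8 h it held 10.0, 6.51, 4.87 and 1.66 CPM, with replicate 4 among the controls, for a log2 change of 1.90 ± 0.44 (adjusted p = 0.000547), and 1.36 (adjusted p = 0.0553) with the sets as a term. At 24 h it was higher by 2.06 and at 48 h by 1.59. The 48 h change was 0.98 (adjusted p = 0.248) without 48 h replicate 1 and 0.59 (adjusted p = 1) without replicates 1 and 3. The 12 h change, 1.19 ± 0.46 (adjusted p = 0.0462), was lost without any 1 of 8 libraries (control replicates 2, 3, 4, 5, 8 and 9, and 12 h replicates 1 and 2), with adjusted p up to 0.312. The span of KCNQ1 overlaps 2 long noncoding RNA genes.

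KCNAB2 encodes the beta-2 subunit of voltage-gated potassium channels (chromosome 6, 66928374 to 67016846). The KCNAB2 controls lay between 0.978 and 2.35 CPM (median 1.37), and it held 9.85, 9.37, 7.31 and 0.772 CPM at 8 h, with 3 libraries above all controls and replicate 4 below them. The 8 h change was 2.28 ± 0.43 (adjusted p = 5.56e-05), and 1.46 (adjusted p = 0.0634) with the sets as a term. At 20 h it held 8.95, 5.59, 6.43 and 10.4 CPM and at 24 h 7.02, 5.13, 10.3 and 4.32 CPM, all above the controls, for log2 changes of 2.47 ± 0.43 (adjusted p = 2.26e-05) and 2.23 ± 0.43 (adjusted p = 6.54e-05). The 16 h change of 2.20 ± 0.43 passed, and was 1.30 (adjusted p = 0.143) with the sets as a term. At 12 h the change of 1.34 was lost without 12 h replicate 1, at 0.61 (adjusted p = 0.389), or replicate 2, at 1.30 (adjusted p = 0.0517). At 48 h the change of 1.95 was 1.50 (adjusted p = 0.0596) without 48 h replicate 1 and 0.91 (adjusted p = 0.951) without replicates 1 and 3.

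Medians of the leucocyte marker sums were also higher than in the controls at 8, 16 and 20 h, with time courses that differed. The neutrophil median was 192, 90.7 and 44.4 CPM and the macrophage median 330, 427 and 325 CPM at these times. KCNQ1 had medians of 5.69, 12.0 and 9.57 CPM and KCNAB2 of 8.34, 6.41 and 7.69 CPM. The sum of 7 neutrophil markers (of 12 listed) was 2.21 to 15.3 CPM in the controls and 386, 273, 111 and 24.1 CPM in 8 h replicates 1 to 4, and the macrophage sum was 533, 362, 299 and 138 CPM there, so replicate 4 was the lowest of the 4 in both lists, as it was in KCNQ1 and KCNAB2. At 16 h the macrophage sum was 295 to 519 CPM, and at 20 h 247 to 673 CPM, against 67.8 to 212 CPM in the controls. None of the 12 macrophage or 7 neutrophil markers was at 0 in every library, and 1 of 14 lymphocyte markers was in the table. CHRND, CHRNG and CLCN5 were also lowest in replicate 4 at 8 h, at 6.62, 0.772 and 1.99 CPM. The part of infiltrating cells in KCNQ1, KCNAB2 and these genes was not tested.

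KCNN3 encodes SK3, a small-conductance calcium-activated channel known to appear in denervated muscle fibres (chromosome 4, 94913631 to 95112845). The KCNN3 controls lay between 4.84 and 20.6 CPM (median 12.9). It held 44.3, 33.2, 31.3 and 23.0 CPM at 8 h and 26.5, 25.1, 36.5 and 30.0 CPM at 16 h, above all controls both times, for log2 changes of 1.48 ± 0.28 (adjusted p = 5.49e-05) and 1.32 ± 0.28 (adjusted p = 0.000232). It was also higher at 20 h with 0.90 ± 0.28 and at 24 h with 1.13 ± 0.28. Each of these 4 calls passed with the sets as a term and on leaving out any 1 library. At 8 h replicate 4, the lowest of the 4 libraries in leucocyte markers, was also the lowest in KCNN3, at 23.0 CPM, which is above every control. At 48 h KCNN3 held 23.7, 13.6, 25.9 and 5.79 CPM and did not pass. Replicates 1 and 3, high in macrophage markers, were the higher ones there. The part of infiltrating cells in KCNN3 was not tested. Its span overlaps PMVK, which has its own row, so reads of the pair cannot be told apart without a stated strand.

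**Figure D5:**
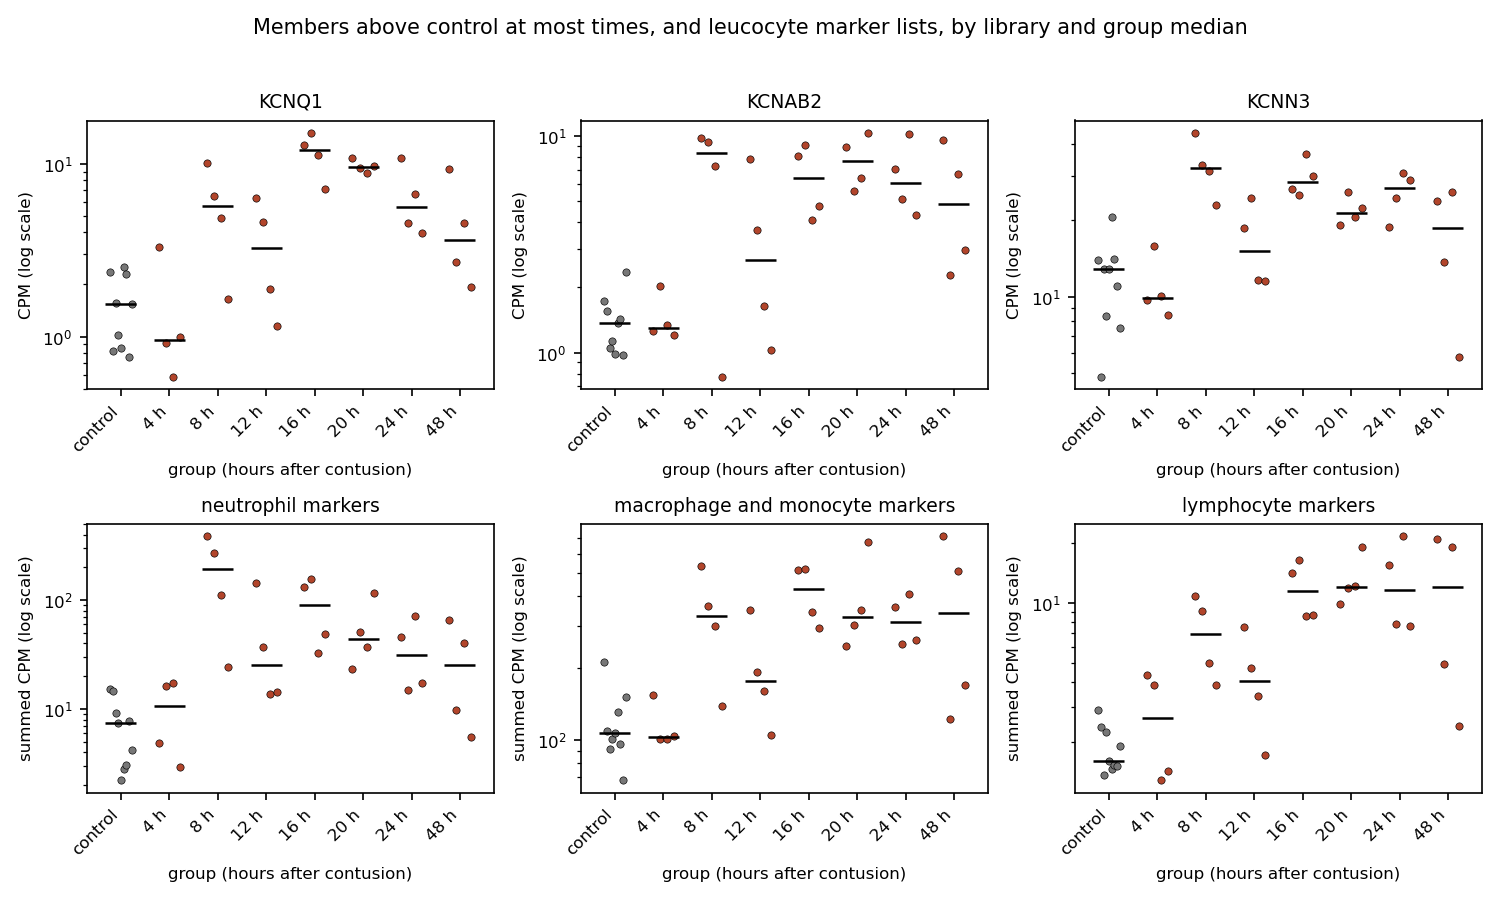
CPM of KCNQ1, KCNAB2 and KCNN3 (top) and summed CPM of the neutrophil, macrophage and monocyte, and lymphocyte markers in the table (bottom) in each library (points) with the group median (lines), on log axes, for the 9 controls and the 4 libraries at each time in hours after contusion. At 8 h, 1 library (replicate 4) lies apart from the other 3 in KCNQ1, KCNAB2, and the neutrophil and macrophage sums. Its KCNN3 value is also the lowest at 8 h and lies above the controls.

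The 48 h and 8 h libraries were then compared directly. Of the members, 8 were higher at 48 h and 3 lower, against 37.3% of all genes (20.5% higher and 16.9% lower). With scaling by column totals, which shifted the all-gene median by 0.42, the split was 14 higher and 1 lower. Genes passing in all were then 4363, against 3514 with TMM. Without 48 h replicates 1 and 3, 10 members were higher and 5 lower, against 33.1% of all genes (16.9% higher and 16.2% lower), with 7 calls gained and 3 lost. Some of the 11 members that were lower at 8 h than in the controls were higher at 48 h than at 8 h. These were KCNE4 by 1.98 ± 0.49 (adjusted p = 0.00199), KCNJ2 by 1.16 ± 0.32 (adjusted p = 0.00522), KCNJ8 by 1.04 ± 0.30 (adjusted p = 0.00661) and CLCN1 by 0.97 ± 0.22 (adjusted p = 0.000968). CLCN3, CLCN4, KCNJ3, KCNMA1 and KCNQ5, also lower at 8 h, did not pass here in the fit of all libraries. Both comparisons use the same 8 h libraries. KCNS3 was higher by 1.75. CHRNA1 and MUSK were higher by 2.21 ± 0.47 (adjusted p = 0.000431) and 2.03 ± 0.57 (adjusted p = 0.00519). SCN3B was higher by 1.12, which turned to -0.53 (adjusted p = 0.301) without 48 h replicates 1 and 3. NALF2 fell from 20.7, 17.2, 19.6 and 16.4 CPM to 3.68, 2.08, 0.772 and 2.12 CPM, a log2 change of -3.07 ± 0.53 (adjusted p = 5.1e-05), with no overlap. KCNH2 and KCNN3 were lower, with log2 changes of -0.99 and -0.92. Fitted with the sets, the changes of KCNJ2, MUSK, SCN3B and KCNS3 were 0.91 (adjusted p = 0.0770), 1.61 (adjusted p = 0.125), 0.66 (adjusted p = 0.374) and 0.84 (adjusted p = 0.386), and those of KCNH2 and KCNN3 -1.02 (adjusted p = 0.124) and -0.94 (adjusted p = 0.155). CHRND and CHRNG did not pass between the 2 times (adjusted p = 0.251 and 0.400).

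Single libraries decided some of these. The KCNJ8 difference was 0.76 (adjusted p = 0.0523) without 48 h replicate 4. The KCNH2 difference was lost without any 1 of 7 libraries (all 4 at 8 h, and 48 h replicates 1, 2 and 4), the KCNN3 difference without 8 h replicates 1 or 2 or 48 h replicates 2 or 4, and the SCN3B difference without 8 h replicates 1, 2 or 3 or 48 h replicates 1 or 3, with adjusted p up to 0.148, 0.13 and 0.481. Without 48 h replicates 1 and 3, the differences of KCNE4, KCNJ2, KCNJ8, CLCN1 and KCNS3 were 2.42 (adjusted p = 0.00153), 1.32 (adjusted p = 0.00938), 1.27 (adjusted p = 0.00675), 0.71 (adjusted p = 0.0354) and 2.16 (adjusted p = 0.00793). Those of NALF2, KCNH2 and KCNN3 were -3.11 (adjusted p = 0.00121), -1.53 (adjusted p = 0.0224) and -1.74 (adjusted p = 0.00286), so all 8 of these calls were kept. CHRND was then lower at 48 h, at -2.30 (adjusted p = 0.00648). In that fit CHRNA1 differed by 0.46 (adjusted p = 0.412) and MUSK by 0.21 (adjusted p = 0.811).

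Over the 28 injured libraries, the slope on log2 hours passed in 5 members, 4 rising and 1 falling, against 24% of 9401 genes tested (13.5% rising and 10.5% falling). With scaling by column totals 17 rose and none fell, the slope of the median gene moving by 0.18. In that fit 4979 genes in all passed, against 2257 with TMM. Per doubling of time, CHRNA1 rose by 0.69 ± 0.12 (adjusted p = 0.000432), CHRNG by 0.66 ± 0.20 (adjusted p = 0.0190), MUSK by 0.53 ± 0.15 (adjusted p = 0.0128) and SCN3B by 0.32 ± 0.10 (adjusted p = 0.0236). NALF2 fell by 0.58 (adjusted p = 0.0265). Fitted with the sets, the slopes of MUSK and SCN3B were 0.39 (adjusted p = 0.138) and 0.16 (adjusted p = 0.377). Without 48 h replicates 1 and 3 none of the members passed in edgeR, where 14.1% of all genes did, and 6 had an unadjusted p under 0.05. Without replicate 1 or replicate 3 alone, CHRNG, MUSK, NALF2 and SCN3B did not pass, with slopes as near 0 as 0.45, 0.42, -0.50 and 0.14.

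Genes that work with the members were taken from 5 lists drawn up from general knowledge. Their calls were not checked with the sets as a term or with each library left out. With the sets, 259 genes in all passed at 4 h and 2576 at 16 h, against 1721 and 4995 without them. Of 36 partners of the neuromuscular junction, 27 were tested, and at 24 h 7 were higher and 10 lower (63% called, against 53.9% of all genes), with a median log2 change of -0.12. AGRN, whose product is the ligand of LRP4, was lower at 6 of 7 times, with log2 changes of -1.89 at 8 h (adjusted p = 7.66e-05) and -2.49 at 20 h (adjusted p = 4.74e-06). NRG1, the growth factor neuregulin, was higher from 8 to 48 h, with 4.19 to 20.8 CPM at 8 h (adjusted p = 1.28e-07) against 0 to 0.365 CPM in the controls. DTNA, which encodes alpha-dystrobrevin of the end-plate scaffold, was lower at 24 h with -1.99 (adjusted p = 1.45e-07), and CTTN, the actin regulator cortactin, was higher then with 1.23 (adjusted p = 3.39e-06).

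Of 20 genes of denervation and myogenic regulation, 16 were tested, and 10 were higher and 4 lower at 24 h (87.5% called, against 53.9% of all genes). RUNX1, a transcription factor known to be induced in denervated muscle, was higher at all 7 times, by 3.64 at 4 h and 5.49 at 8 h (adjusted p = 8.55e-10). GADD45A, a stress gene also known from denervated muscle, was higher from 4 to 24 h, by 4.16 at 8 h (adjusted p = 2.34e-08). TRIM63 and FBXO32, the ubiquitin ligases of muscle wasting, were higher at 16 h by 3.37 (adjusted p = 1.42e-09) and 2.05 (adjusted p = 3.57e-07). At 48 h, 5 genes of this list were higher and none lower (31.2% called, against 20.3% of all genes), and without replicates 1 and 3 none passed in edgeR (2 at an unadjusted p under 0.05). RUNX1 was at 1.46 (adjusted p = 0.807) and NRG1 at 1.63 (adjusted p = 1) in that fit.

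Of 13 subunits and regulators of the sodium-potassium pump, which restores the ion gradients that the channels use, 4 were tested and all 4 passed over the 7 times, against 83.2% of all genes. At 24 h, 1 was higher and 3 were lower, and the 1 that was higher passed as higher at all 7 times. ATP1B1, a beta subunit of the pump, was lower at all 7 times, with -1.51 at 24 h (adjusted p = 8.97e-06). Its 48 h change was -0.17 without replicates 1 and 3 (adjusted p = 1). ATP1B4 and ATP1A4 were lower at 24 h, with -3.16 and -2.43.

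Of 24 genes of excitation-contraction coupling, which links the action potential to calcium release, 15 were tested. None passed as higher at 8 h and 3 as lower (20% called, against 54% of all genes), while at 24 h 2 were higher and 9 lower (73.3% called, against 53.9%), with a median of -0.99. JPH1, a junctophilin that holds the triad together, and STAC3, an adaptor of the voltage sensor, were lower at 24 h, with log2 changes of -1.22 (adjusted p = 0.000171) and -0.99 (adjusted p = 0.000817). JSRP1, a protein of the junctional membrane, was lower with -1.71, and CACNA2D3, a calcium channel accessory subunit, was lower at all 7 times, with 0 to 0.317 CPM at 16 h against 0.864 to 27.8 CPM in the controls. The 48 h change of CACNA2D3 was -1.64 without replicates 1 and 3 (adjusted p = 0.938). The fibre marker sums were 85651 to 110898 CPM at 4 h, within the control range, and 63102 to 73773 CPM at 8 h, with 2 of 4 libraries below it, and at 24 h all 4 were below it, and their part was not tested.

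Of 25 direct partners and regulators of the channels, 10 were tested, and 4 were higher and 5 lower at 24 h (90% called, against 53.9% of all genes). ABCC9, the sulfonylurea receptor that assembles with Kir6.1, was lower at 8 h with -1.49 (adjusted p = 1.71e-07), as KCNJ8 was, and also at 16 h by -0.82 (adjusted p = 0.000366), where KCNJ8 did not pass. OSTM1 encodes the beta subunit of the lysosomal exchanger encoded by CLCN7. It was higher at 16 h by 0.62 (adjusted p = 0.00329), at 20 h by 0.71 (adjusted p = 0.000945) and at 24 h by 1.06 (adjusted p = 6.52e-06), times at which CLCN7 passed as higher too. OSTM1 was also higher at 48 h, by 0.56 (adjusted p = 0.0218), where CLCN7 did not pass. STK39, a kinase that controls cation chloride cotransport, was higher from 4 to 24 h, and NEDD4L, a ubiquitin ligase of sodium channels, was higher at 8, 20 and 24 h.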

How the data were processed

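RNA from flash-frozen muscle was extracted with Trizol and made into libraries with the NEBNext Ultra kit, sequenced from both ends on a HiSeq-2500 machine, per the labels' protocols. The submitters' processing notes list HISAT2 2.2.1 and HTSeq beside FastQC, Trimmomatic and MultiQC, with Sscrofa11.1 as genome build. Neither annotation release nor counting strand is stated there. The authors deposited raw counts per gene in 1 table of 9418 rows and 37 columns, each column matched to a sample by its title. The smallest row maximum is 101 counts, so genes were selected before deposit by a rule not given here, and column totals understate sequencing depth.

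In R 4.3.3, edgeR 4.0.16 (limma 3.58.1) scaled the counts by TMM, kept 9411 genes by filterByExpr and fitted robust quasi-likelihood models with 1 mean per group to the 37 libraries. Benjamini-Hochberg adjustment ran over all genes tested, with a threshold of 0.05. The comparisons were control against each time and against all 7 at once, 48 h against 8 h, and a slope on log2 hours in the 28 injured libraries. In simulated counts 75% of genes changed by a log2 of 1 were recovered at 48 h against control, 98% of those changed by 2, and 55% and 94% for 48 h against 8 h. There 100 genes of each size, all above 1 CPM in the controls, were changed at 48 h only. Neither the library sets nor the unlike pairs of 48 h libraries were simulated, so these shares hold for that simpler setting. Within groups, every pair of libraries differed by more than sampling noise (lowest chi-square per degree of freedom 16.1). Limits from 3 counts cover counting error only.

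The members and the lists were chosen with earlier results of these data known. Members described in full were a list of main fibre and end-plate genes and the 12 with the smallest p over the 7 times; from each partner list up to 4 genes by the same p are named. The other members are given by counts, with those past the threshold named after their values were seen. Of the 33 members, 3 enter the counts and are not reported here by name, and neither is 1 partner gene. Marker lists were of muscle fibres, neutrophils, macrophages and monocytes, lymphocytes, smooth muscle and pericytes, endothelium, Schwann cells, fibroblasts and adipocytes. At 24 h against control the endothelial list had 3 of 8 tested genes lower and none higher, the Schwann cell list 1 lower and 2 higher of 6, the fibroblast list 5 lower and 1 higher of 10, and the adipocyte list 1 lower and 1 higher of 6. The library sets were taken in order as totals above 20 M, then C1QBP over 8 CPM, then NDUFAF8 under 4 CPM, then ND6 of 32 CPM or less, thresholds that come from earlier results of these data, and the remaining libraries form set 5.

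Gene spans are from a RefSeq table of Sscrofa11.1, which held 32 of the 33 symbols. Of these, 11 overlap another listed gene, which has its own row for 3 (CLCN6, KCNA7 and KCNN3). Alternatives were other size factors, column totals, other filters, DESeq2 1.42.0, limma-voom, the replicate number as a block, the library sets, fewer libraries, hours in place of log2 hours, and each library left out.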

Additional observations from a re-analysis of the deposited data

Results flagged for a closer look

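Within groups of 4 or 9 libraries, a single library stood far from the others in 21 of 240 gene and group pairs, where chance gives about 12 at 1 in 20. Among the controls these were replicate 1 in CHRNA10 (33.9 CPM), replicate 2 in DOK7 (29.9 CPM), replicate 7 in CHRND (6.37 CPM), KCNC4 (55.9 CPM) and KCNS3 (80.6 CPM), and replicate 9 in KCNH2 (2.17 CPM). At 4 h they were replicate 1 in CHRNA1 (7.09 CPM) and KCNQ1 (3.32 CPM), replicate 2 in KCNAB2 (2.04 CPM), replicate 3 in DOK7 (9.00 CPM) and KCNS3 (16.5 CPM), and replicate 4 in CLCN3 (40.7 CPM). At 12 h replicate 4 was low in CLCN6 (2.18 CPM), CLCN7 (14.0 CPM) and KCNJ8 (7.21 CPM), and at 16 h replicate 4 was high in KCNH2 (5.70 CPM) and KCNJ3 (2.13 CPM). The others were 20 h replicate 1 in KCNS3 (26.9 CPM), 24 h replicate 3 in KCNA7 (11.7 CPM) and KCNQ5 (21.2 CPM), and 48 h replicate 4 in KCNJ8 (27.3 CPM).

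Between 8 h and 48 h, 11 members differed in the direct edgeR test. The log2 differences were 2.21 for CHRNA1, 0.97 for CLCN1, 1.98 for KCNE4, -0.99 for KCNH2, 1.16 for KCNJ2, 1.04 for KCNJ8, -0.92 for KCNN3, 1.75 for KCNS3, 2.03 for MUSK, -3.07 for NALF2 and 1.12 for SCN3B.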

How the results depend on the processing

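Of 120 member values past the threshold, other size factors and both other filters kept all 120, DESeq2 kept 120, limma-voom 105, column totals 104, the replicate block 100 and the library sets 75, and none of these reversed a direction. At 4 h, 5 members passed in the reported fit, 10 with column totals, 8 with DESeq2, 8 with the replicate block and 1 with the library sets. In the same order, 1721, 1691, 2049, 1628 and 259 genes in all passed at 4 h. With the library sets 10 members passed at 8 h, 8 at 16 h and 5 for 48 h against 8 h, where 3966, 2576 and 1942 genes in all did. The slope passed in 17 members with column totals, 8 with DESeq2 and 11 with the library sets, and in 4979, 2648 and 2818 genes in all. Without 48 h replicates 1 and 3, 0 passed at 48 h in edgeR (4 at an unadjusted p under 0.05) and 0 in the slope (6 at an unadjusted p under 0.05), against 1 and 1329 of all genes, while 15 passed for 48 h against 8 h, and SCN3B reversed to -0.45 at 48 h and -0.53 for 48 h against 8 h. The cause of these differences was not tested. Leaving out each library in turn gave 3 to 7 members at 4 h, 16 to 19 at 8 h, 8 to 14 at 12 h, 12 to 17 at 16 h, 16 to 21 at 20 h, 18 to 22 at 24 h, 5 to 14 at 48 h, 28 to 31 for the 7 times, 8 to 12 for 48 h against 8 h and 1 to 8 for the slope.

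Whether equal replicate numbers mark the same animal is not stated. Libraries of the same number correlated between -0.597 and 0.575 in their deviations from the group mean. Those of other numbers correlated between -0.679 and 0.726, and 9 of 28 correlated best with their own number. These values cannot tell which libraries share an animal. With the replicate block, 15, 14, 14, 17, 17 and 11 members passed at 8, 12, 16, 20, 24 and 48 h, 28 over the 7 times, 10 for 48 h against 8 h and 4 in the slope. Genes passing in all were 4466, 2609, 4062, 4240, 4455 and 1798 at these times. Over the 7 times they were 7487, for 48 h against 8 h 3566 and in the slope 2084. Depth limits CHRNG most, since its controls lie near the level of 3 counts.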
